A study of Homo sapiens with 11 samples.

Results

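The transcripts described here are those of the human mitochondrial genome, taken as every row of the deposited count table whose Ensembl ID maps to a symbol beginning with MT-. There were 37 such genes among the 61464 rows of the table: 13 mRNAs, 2 ribosomal RNAs and 22 transfer RNAs. They were measured by sequencing polyadenylated RNA of HCT116, a long-established line derived from a human colorectal carcinoma, labelled as epithelial and as carrying a ras mutation. The groups were cells given GTEA7 (4 libraries), cells given GTEA1 (4 libraries) and cells given the solvent DMSO (3 libraries), each for 48 h. GTEA7 and GTEA1 are code names of triterpenoid extracts of Ganoderma fungi, which the study tested for action against stem cell properties and migration in colon cancer. Neither their doses nor their composition is given in the labels. All libraries carry the label of batch 1, and no label says that replicates were separate cultures, so p-values measure the spread between these libraries, whatever it came from.

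Mitochondrial DNA (mtDNA) is a small circle present in many copies per cell. Its heavy and light strands are transcribed into long precursor RNAs by the polymerase POLRMT with TFAM and TFB2M, and the precursors are cut mostly at the tRNAs that lie between the other genes. The mRNAs encode subunits of respiratory chain complexes I, III and IV and of the ATP synthase, complex V, while complex II is encoded wholly in the nucleus. Because genes on a strand share a precursor, differences between their levels arise in processing, in decay and in how the RNA is captured as well as in transcription, and the genes are not independent observations. Mature mitochondrial mRNAs and rRNAs carry short poly(A) tails, whereas tRNAs and the light-strand mRNA MT-ND6 lack a comparable tail. The libraries were made from RNA bound to oligo(dT) beads, so the amount of a transcript and the share of it that was captured cannot be told apart. In bulk RNA, fewer cells of a kind and less RNA per cell cannot be told apart either.

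For 6 of the 13 mRNAs the gene as annotated stops before the stop codon is complete, and the poly(A) tail supplies the missing bases. Their last 24 bases are shown because the tail is both what completes these reading frames and what the libraries select for. The sequences are from GENCODE v29 transcripts, 5′ to 3′, and capitals mark the incomplete stop codon. MT-ATP6 is not among them, since its annotated stop codon is complete, but its gene overlaps MT-CO3 by 1 base. Whether the MT-ATP6 mRNA keeps that base, or also depends on its tail, was not measured.

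MT-ND1: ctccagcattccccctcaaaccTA

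MT-ND2: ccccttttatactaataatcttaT

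MT-CO3: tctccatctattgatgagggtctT

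MT-ND3: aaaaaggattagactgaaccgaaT

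MT-ND4: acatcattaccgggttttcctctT

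MT-CYB: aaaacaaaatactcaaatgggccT

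The reading frames of MT-ATP8 and MT-ATP6 lie on 1 mRNA and share 46 bases, out of 207 bases of MT-ATP8. The shared stretch is shown because a read that lies in it belongs to both genes. Capitals mark the start codon of MT-ATP6 at the 5′ end and the stop codon of MT-ATP8 at the 3′ end.

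MT-ATP8/MT-ATP6 overlap: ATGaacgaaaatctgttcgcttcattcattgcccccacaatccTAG

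The proline tRNA, MT-TP, was the 1 tRNA with enough counts to be tested. Its gene of 68 bases is shown in full from the same source, with the anticodon TGG in capitals.

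MT-TP: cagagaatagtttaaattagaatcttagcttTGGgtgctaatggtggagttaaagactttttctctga

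Total counts per library ranged from 13742326 to 19304211, and counts of mtDNA genes from 1863323 to 2892315. Enough reads for a test were found for 17963 genes, among them 16 mtDNA genes: the 13 mRNAs, both rRNAs and MT-TP. DMSO replicate 2 stood apart, with 13.3% of its counts from mtDNA genes against 15.0% and 15.1% in the other DMSO libraries, so values without it are given beside results that it moves or among the processing alternatives. Of 8 epithelial markers 7 were tested, among them EPCAM and KRT8, which had 278 and 1036 CPM in GTEA7, 359 and 972 CPM in GTEA1, and 234 and 1160.5 CPM in DMSO. With GTEA1, 4 of the 7 rose and 3 fell, where 35.6% of all genes tested rose and 36.2% fell. With GTEA7, 3 rose and 2 fell, where 12% of all genes tested rose and 10.4% fell. VIL1, a brush border marker of the colon, had 28 counts in all. Of 8 markers of other cells 3 were tested, and 1 of them, the fibroblast gene COL1A1, fell with each extract, at 39.6 CPM in GTEA7, 40.8 CPM in GTEA1 and 51.8 CPM in DMSO. Fibroblast COL3A1 had 1.72 CPM in GTEA7, 0.726 CPM in GTEA1 and 2.51 CPM in DMSO, and endothelial VWF had 1.74 CPM in GTEA7, 1.09 CPM in GTEA1 and 1.33 CPM in DMSO. The leukocyte markers PTPRC, CD3E and CD68 had 12, 0 and 1 counts over all libraries, fibroblast PDGFRB 53 and endothelial PECAM1 67. The part of these markers in the results on mtDNA genes was not tested.

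Nuclear chromosomes hold copies of mtDNA segments, and reads can be split between a gene and its copy. The table held 404 rows for such copies, 136 of them with counts, and together they had 225678 counts, equal to 0.9% of the 25068573 counts of the mtDNA genes. MTATP6P1 alone had 166438 of these, or 73.8%, beside 1172683 counts of MT-ATP6. For this gene the copy therefore weighed more than the 0.9% over all mtDNA genes. MTATP6P1 is identical to MT-ATP6 at 671 of 681 bases. Its log2 fold change was -0.84 ± 0.08 (SE, adjusted p = 7.56e-06) with GTEA1 and -0.13 ± 0.08 (SE, adjusted p = 0.314) with GTEA7, beside -0.79 and 0.01 for MT-ATP6 itself. MTCO1P12, with 24707 counts and 98.6% identity to MT-CO1, had a change of 0.43 ± 0.13 with GTEA1 (SE, adjusted p = 0.0148). MTND2P28, with 7982 counts and 98.4% identity to MT-ND2, had a change of -0.72 ± 0.17 (SE, adjusted p = 0.00377). How reads were divided between genes and copies is not stated, so values of mtDNA genes are uncertain to an extent that was not measured.

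Levels per length set the genes apart by more than 10-fold within every group. Per kilobase of gene, MT-CO1, the catalytic subunit of cytochrome c oxidase, was highest in each group, with 21712 ± 178 CPM per kb in GTEA7, 23577 ± 724 in GTEA1 and 19382 ± 1162 in DMSO (SD, n = 4, 4 and 3). In DMSO it was followed by MT-CO2 at 18813 ± 1755 and MT-CO3 at 18206 ± 884 CPM per kb, and each of these subunits of the same complex lay within 1 SD of its neighbour in the order. MT-RNR2 at 14351 ± 911 and MT-ND4 at 13236 ± 1257 CPM per kb came next in DMSO, again within their spread, and then MT-ATP6 at 11295 ± 1064. A wide gap separated these from MT-CYB at 5782 ± 343 CPM per kb in DMSO. MT-ND5, MT-ND4L, MT-ND2, MT-ND1, MT-RNR1 and MT-ND3 followed between 4722 and 3999.7 CPM per kb in DMSO, and each was within 1 SD of its neighbour. MT-ND6 at 2431 ± 419, MT-TP at 1641 ± 19.0 and MT-ATP8 at 1068 ± 137 CPM per kb were lowest in DMSO. MT-TP and MT-ATP8 are the shortest genes tested, and their levels per kilobase compare less well with the rest.

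The order in GTEA7 cells resembled that in DMSO cells, with MT-CO1, MT-CO2 and MT-CO3 first and MT-ND6, MT-TP and MT-ATP8 last. In GTEA1 cells MT-RNR2 stood beside MT-CO1, at 23265 ± 871 CPM per kb. MT-CO3 lay lower in GTEA1, at 10782 ± 542 CPM per kb, below MT-CO2 at 16220 ± 745 and MT-ND4 at 15195 ± 858. MT-ATP8 was lowest in GTEA1 at 563 ± 109 CPM per kb, and MT-CYB, MT-ND2, MT-RNR1, MT-ND1, MT-ND3, MT-TP and MT-ND6 lay close together between 2818 and 2245 CPM per kb.

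**Figure D1:**
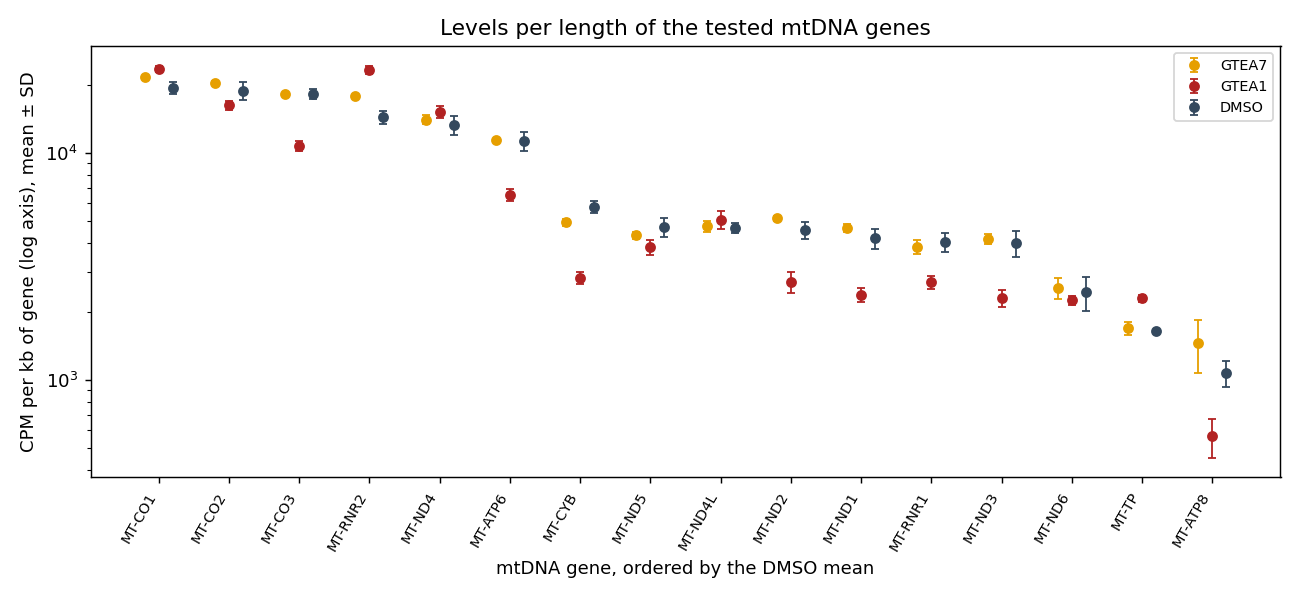
Levels of the 16 tested mtDNA genes in TMM-scaled CPM per kilobase of gene on a log axis, as mean ± SD over 4 GTEA7, 4 GTEA1 and 3 DMSO libraries, ordered by the DMSO mean. MT-CO1 is highest in every group. The GTEA1 means of MT-CO2, MT-CO3, MT-ATP6, MT-CYB, MT-ND5, MT-ND2, MT-ND1, MT-RNR1, MT-ND3, MT-ND6 and MT-ATP8 lie below both other groups, with overlapping SD bars for MT-ND6.

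With GTEA1, most mtDNA mRNAs were lower than with DMSO and a few transcripts were higher. Of the 16 genes tested, 10 fell and 4 rose at an adjusted p under 0.05 (edgeR quasi-likelihood test, Benjamini-Hochberg over 17963 genes), where 36.2% of all genes fell and 35.6% rose. The falls ran from MT-CYB, the mtDNA subunit of complex III, at 0.487-fold, to MT-CO2 at 0.862-fold. The rRNA MT-RNR2 rose to 1.62-fold, MT-TP to 1.39-fold, MT-CO1 to 1.22-fold and the complex I mRNA MT-ND4 to 1.15-fold. MT-ND4L and MT-ND6 did not pass. The median log2 fold change was -0.76 over the 13 mRNAs and -0.44 over the 16 genes, beside -0.01 over all genes. Scaling by library total alone moved the median of all genes to -0.17 and the shares that rose and fell to 26.9% and 45.5%. On that scale MT-ND4 was at 0.04 and no longer passed (adjusted p = 0.456), while MT-RNR2, MT-CO1 and MT-TP were still higher at 0.54, 0.12 and 0.32, and the 10 falls still passed.

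With GTEA7, few mtDNA transcripts moved, and by less. MT-RNR2, MT-CO1 and MT-CO2 rose, MT-CYB fell, and the other 12 genes did not pass the test, where 12% of all genes rose and 10.4% fell. The 4 changes were 1.24-fold for MT-RNR2, 1.12-fold for MT-CO1, 1.09-fold for MT-CO2 and 0.856-fold for MT-CYB. The median log2 fold change was 0.07 over the 13 mRNAs and 0.06 over the 16 genes, beside -0.01 over all genes. Library totals alone moved the median of all genes to -0.06 and the shares to 6.99% higher and 16.4% lower, and MT-CO2 then stood at 0.07 and did not pass (adjusted p = 0.234). Without DMSO replicate 2, MT-CO1 at 0.12 (adjusted p = 0.0563) and MT-CO2 at 0.05 (adjusted p = 0.53) did not pass and MT-ND5 did, at -0.20 (adjusted p = 0.00172). MT-RNR2 and MT-CYB were then the genes that passed in both fits. MT-CO2 also did not pass without any 1 of the GTEA7 libraries, with an adjusted p of 0.0549 to 0.102. The comparisons of GTEA7 and of GTEA1 with DMSO use the same 3 DMSO libraries, so likeness between them is not independent.

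Set directly against each other, GTEA7 libraries had more of most mtDNA mRNAs than GTEA1 libraries. Of the 16 genes, 10 were higher and 4 lower, where 36.2% of all genes were higher and 36.4% lower. The higher ones were MT-RNR1 and 9 mRNAs, with MT-ATP8 at 2.58-fold, MT-ND1 at 1.98-fold and MT-ND2 at 1.91-fold leading. The lower ones were MT-TP at 0.739-fold, MT-RNR2 at 0.765-fold, MT-CO1 at 0.921-fold and MT-ND4 at 0.922-fold. The median log2 fold change was 0.75 over the 13 mRNAs, beside 0.00 over all genes. Library totals alone moved the median of all genes to 0.11 and the shares to 42.6% higher and 30.4% lower. MT-CO1 and MT-ND4 were then both at -0.01 and did not pass (adjusted p = 0.799 and 0.877), and MT-ND6 passed at 0.29 (adjusted p = 0.0439).

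**Figure D2:**
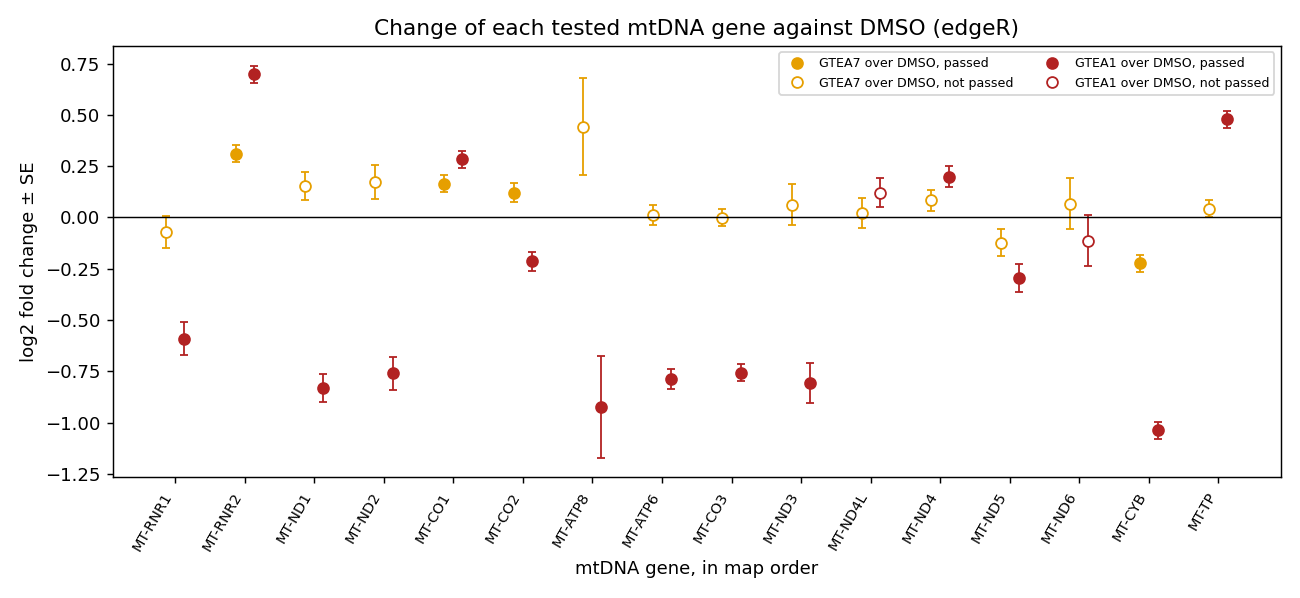
Log2 fold change ± SE (edgeR) of the 16 tested mtDNA genes in map order, for GTEA7 over DMSO and GTEA1 over DMSO; filled points passed at an adjusted p under 0.05 and open points did not. GTEA1 points run from -1.04 for MT-CYB to 0.70 for MT-RNR2, and most GTEA7 points lie near 0.

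The mtDNA rRNAs, which form the cores of the mitochondrial ribosomal subunits, moved apart with GTEA1. MT-RNR2 (ENSG00000210082), the large-subunit rRNA, had 27180, 28105, 27960 and 27784 CPM in GTEA7, 36881, 36135, 37615 and 34447 CPM in GTEA1, and 23322, 20740 and 23057 CPM in DMSO. The 3 groups did not overlap, with GTEA1 highest and DMSO lowest. Its log2 fold change was 0.31 ± 0.04 for GTEA7 over DMSO (SE, edgeR adjusted p = 1.46e-07), 0.70 ± 0.04 for GTEA1 over DMSO (SE, edgeR adjusted p = 4.2e-20) and -0.39 ± 0.04 for GTEA7 over GTEA1 (SE, edgeR adjusted p = 1.92e-12). MT-RNR1 (ENSG00000211459), the small-subunit rRNA, had 4022, 3747, 3407 and 3530 CPM in GTEA7, 2377, 2761, 2632 and 2488 CPM in GTEA1, and 3891, 3473 and 4221 CPM in DMSO. All GTEA1 libraries lay below all others for MT-RNR1, and the ranges of GTEA7 and DMSO overlapped. The change of MT-RNR1 was -0.59 ± 0.08 for GTEA1 over DMSO (SE, edgeR adjusted p = 7.12e-05), and for GTEA7 over DMSO it was -0.07 ± 0.08 (SE, edgeR adjusted p = 0.598).

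In counts, a library held 7.58 ± 0.622 times as many MT-RNR2 as MT-RNR1 reads in GTEA7, 14.2 ± 1.02 in GTEA1 and 5.81 ± 0.3 in DMSO (SD, n = 4, 4 and 3). This ratio was chosen after the values were seen and was not tested. Its range was 6.76 to 8.21 in GTEA7, 13.1 to 15.5 in GTEA1 and 5.46 to 5.99 in DMSO. A ratio within a library needs no scaling between libraries.

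Complex I, NADH:ubiquinone oxidoreductase, takes 7 of its subunits from mtDNA, all in the membrane arm. With GTEA1, 4 of the 7 mRNAs fell, MT-ND4 rose, and MT-ND4L and MT-ND6 did not pass, where 36.2% of all genes fell and 35.6% rose. With GTEA7, 0 of the 7 passed against DMSO in edgeR, with 1 at an unadjusted p under 0.05, 2 passing in limma-voom and 0 in the Wald test of DESeq2. In edgeR 12% of all genes rose and 10.4% fell with GTEA7. MT-ND1 (ENSG00000198888), a subunit at the quinone-binding end of the membrane arm, had 4735, 4425, 4310 and 4448 CPM in GTEA7, 2385, 2402, 2184 and 2085 CPM in GTEA1, and 4119, 3581 and 4380 CPM in DMSO. Every GTEA1 library lay below every other library for MT-ND1. Its change was 0.15 ± 0.07 with GTEA7 (SE, edgeR adjusted p = 0.131) and -0.83 ± 0.07 with GTEA1 (SE, edgeR adjusted p = 1.05e-07).

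MT-ND2 (ENSG00000198763), a proton-pumping subunit of complex I, had 5494, 5194, 5386 and 5382 CPM in GTEA7, 3212, 2828, 2720 and 2494 CPM in GTEA1, and 4918, 4313 and 5059 CPM in DMSO. The 3 groups did not overlap, but the difference between GTEA7 and DMSO, 0.17 ± 0.08, did not pass (SE, edgeR adjusted p = 0.179). It passed when only these 2 groups were fitted (edgeR adjusted p = 0.000757) and in limma-voom (adjusted p = 0.00767). With GTEA1 the change of MT-ND2 was -0.76 ± 0.08 (SE, edgeR adjusted p = 1.11e-05). MT-ND3 (ENSG00000198840), a small subunit near the hinge of complex I, had 1333, 1477, 1498 and 1472 CPM in GTEA7, 874, 784, 791 and 712 CPM in GTEA1, and 1481, 1176 and 1494 CPM in DMSO. It was low in all GTEA1 libraries, and GTEA7 and DMSO overlapped. Its change with GTEA1 was -0.81 ± 0.10 (SE, edgeR adjusted p = 6.12e-05).

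MT-ND4 and MT-ND4L share a bicistronic mRNA, and their reading frames overlap by 7 bases. MT-ND4 (ENSG00000198886), a proton-pumping subunit, had 18223, 19088, 19707 and 20239 CPM in GTEA7, 21957, 20635, 21766 and 19396 CPM in GTEA1, and 19031, 16252 and 19435 CPM in DMSO. The groups overlapped; the change with GTEA1 was 0.20 ± 0.05 (SE, edgeR adjusted p = 0.00145), and it did not pass when library totals alone were the scale. MT-ND4L (ENSG00000212907) had 1316, 1386, 1442 and 1496 CPM in GTEA7, 1521, 1484, 1690 and 1348 CPM in GTEA1, and 1464, 1313 and 1392 CPM in DMSO. These ranges overlapped, and its change with GTEA1 was 0.12 ± 0.07 (SE, edgeR adjusted p = 0.156), or -0.04 with library totals alone. Counts of MT-ND4 were 13.7 ± 0.136 times those of MT-ND4L in GTEA7, 13.9 ± 0.722 times in GTEA1 and 13.1 ± 0.798 times in DMSO (SD, n = 4, 4 and 3).

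MT-ND5 (ENSG00000198786), the proton-pumping subunit at the far end of the membrane arm, had 8013, 7711, 7569 and 8128 CPM in GTEA7, 6464, 7633, 7158 and 6637 CPM in GTEA1, and 9155, 7572 and 8939 CPM in DMSO. GTEA1 was mostly lower, but DMSO replicate 2 lay within its range. Its change was -0.29 ± 0.07 with GTEA1 (SE, edgeR adjusted p = 0.00118) and -0.12 ± 0.07 with GTEA7 (SE, edgeR adjusted p = 0.221). MT-ND6 (ENSG00000198695), the mRNA of the light strand, had 1232, 1256, 1302 and 1553 CPM in GTEA7, 1116, 1240, 1199 and 1159 CPM in GTEA1, and 1458, 1032 and 1339 CPM in DMSO. DMSO replicate 2 was the lowest library of all for MT-ND6, and the groups overlapped. Its change with GTEA1 was -0.11 ± 0.12 (SE, edgeR adjusted p = 0.435), and without DMSO replicate 2 it was -0.25 and passed (adjusted p = 0.0453). The strand setting of the counting is not stated, so reads from the opposite strand over MT-ND6 and MT-TP cannot be told apart from their own.

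Complex III takes 1 subunit from mtDNA, cytochrome b, encoded by MT-CYB (ENSG00000198727). MT-CYB had 5515, 5416, 5856 and 5801 CPM in GTEA7, 3196, 3159, 3027 and 3481 CPM in GTEA1, and 6705, 6164 and 6924 CPM in DMSO. The 3 groups were separate, with GTEA1 lowest and DMSO highest. MT-CYB was the mRNA that fell with each extract, by 0.22 ± 0.04 on the log2 scale with GTEA7 (SE, edgeR adjusted p = 7.17e-05) and by 1.04 ± 0.04 with GTEA1 (SE, edgeR adjusted p = 1.51e-25). Between the extracts it was 0.81 ± 0.04 higher in GTEA7 than in GTEA1 (SE, edgeR adjusted p = 1.16e-22).

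Complex IV, cytochrome c oxidase, takes its 3 largest subunits from mtDNA, and their mRNAs moved in different directions with GTEA1. MT-CO1 (ENSG00000198804) had 33330, 33888, 33384 and 33317 CPM in GTEA7, 37352, 36487, 36816 and 34769 CPM in GTEA1, and 30947, 27817 and 30895 CPM in DMSO. The 3 groups were separate for MT-CO1, with GTEA1 highest. Its change was 0.16 ± 0.04 with GTEA7 (SE, edgeR adjusted p = 0.00285) and 0.28 ± 0.04 with GTEA1 (SE, edgeR adjusted p = 5.83e-08). MT-CO2 (ENSG00000198712), which takes electrons from cytochrome c, had 13734, 13888, 14220 and 14119 CPM in GTEA7, 11800, 10972, 11021 and 10585 CPM in GTEA1, and 13493, 11484 and 13627 CPM in DMSO. GTEA7 lay just above every DMSO library, whereas DMSO replicate 2 lay within the range of GTEA1. Its change was 0.12 ± 0.05 with GTEA7 (SE, edgeR adjusted p = 0.0477) and -0.21 ± 0.04 with GTEA1 (SE, edgeR adjusted p = 4.97e-05).

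MT-CO3 (ENSG00000198938), the other mtDNA subunit of complex IV, had 14075, 14348, 14135 and 14492 CPM in GTEA7, 8842, 8466, 8644 and 7859 CPM in GTEA1, and 14475, 13502 and 14844 CPM in DMSO. Every GTEA1 library was below every other library, and GTEA7 and DMSO overlapped. The change with GTEA1 was -0.76 ± 0.04 (SE, edgeR adjusted p = 1.16e-22). With GTEA7 its value was -0.00 ± 0.04 (SE, edgeR adjusted p = 0.99), on either side of 0 depending on the scaling.

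Complex V, the ATP synthase, takes MT-ATP6, part of the proton channel, and MT-ATP8, a small membrane subunit, from mtDNA. MT-ATP6 (ENSG00000198899) had 7734, 7660, 7725 and 7870 CPM in GTEA7, 4697, 4475, 4574 and 4062 CPM in GTEA1, and 8117, 6855 and 8103 CPM in DMSO. It was low in every GTEA1 library, with a change of -0.79 ± 0.05 against DMSO (SE, edgeR adjusted p = 5.05e-14). MT-ATP8 (ENSG00000228253) had 188, 320, 321 and 375 CPM in GTEA7, 106, 112, 149 and 98.9 CPM in GTEA1, and 253, 210 and 200 CPM in DMSO. GTEA1 was again below all others, with a change of -0.92 ± 0.25 (SE, edgeR adjusted p = 0.00858), but GTEA7 replicate 1 was below every DMSO library while the other GTEA7 libraries were above them. The change of MT-ATP8 with GTEA7 was 0.44 ± 0.24 (SE, edgeR adjusted p = 0.238), and without GTEA7 replicate 1 it was 0.61 (adjusted p = 0.0322). MT-ATP8 had the widest error of the 16 genes.

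Of the tRNAs, MT-TP (ENSG00000210196) had 105, 119, 115 and 121 CPM in GTEA7, 147, 159, 157 and 158 CPM in GTEA1, and 112, 110 and 112 CPM in DMSO. All GTEA1 libraries lay above all others, and GTEA7 and DMSO overlapped. Its change was 0.48 ± 0.04 with GTEA1 (SE, edgeR adjusted p = 8.61e-15) and 0.04 ± 0.04 with GTEA7 (SE, edgeR adjusted p = 0.511). Of the 21 tRNAs that were not tested, MT-TF for phenylalanine had 22 counts over all libraries, with 0 to 3 per library. MT-TC for cysteine and MT-TY for tyrosine had 9 and 8 counts, with at most 2 in any library. The other 18 tRNA genes had 0 counts in all 11 libraries, which allows up to 0.155 to 0.218 CPM per library, before TMM scaling (3 counts of the total, counting error only). The libraries do not measure these tRNAs, and no difference between groups was detectable at this depth.

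**Figure D3:**
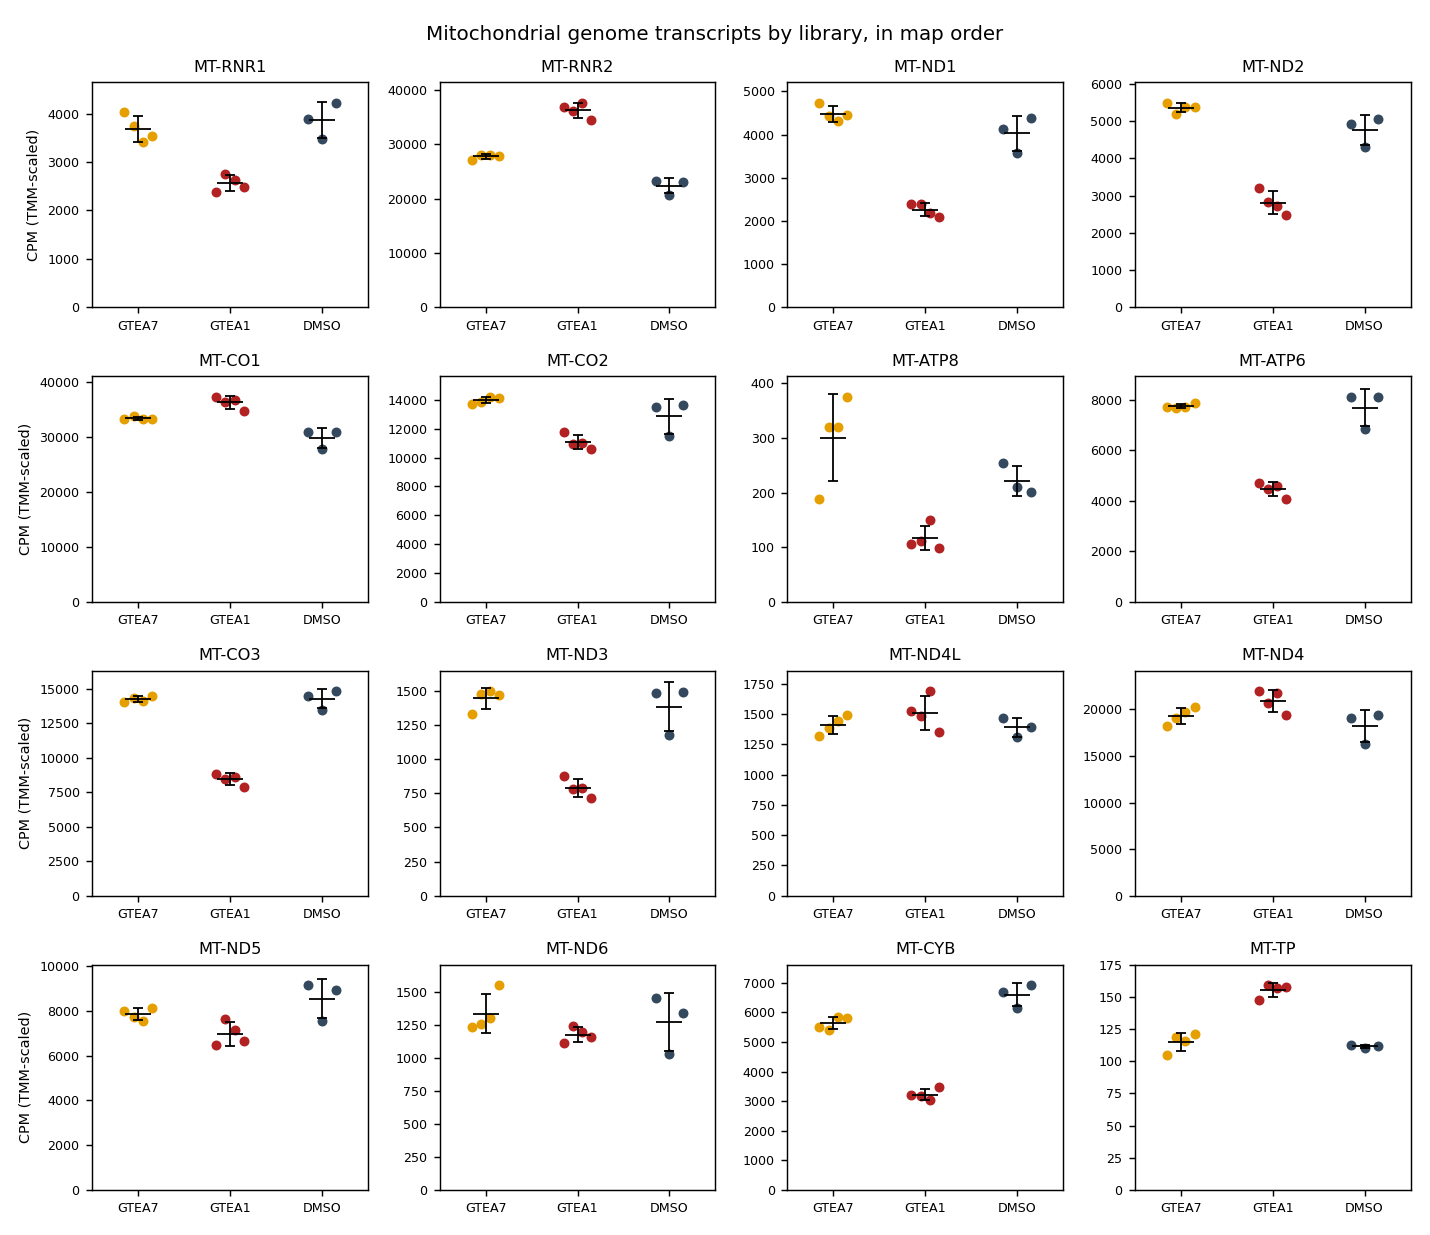
Levels of the 16 tested mtDNA genes in TMM-scaled CPM in each of the 4 GTEA7, 4 GTEA1 and 3 DMSO libraries, with mean ± SD. GTEA1 points lie below all others for MT-RNR1, MT-ND1, MT-ND2, MT-ATP8, MT-ATP6, MT-CO3, MT-ND3 and MT-CYB and above all others for MT-RNR2, MT-CO1 and MT-TP.

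The mtDNA genes were also compared by the share of a library's counts that they took, and by what made up that share. All 37 genes together took 15.1% ± 0.152 in GTEA7, 13.1% ± 0.452 in GTEA1 and 14.5% ± 0.964 in DMSO (SD, n = 4, 4 and 3). In the exact two-sided permutation test the difference from DMSO had p = 0.457 for GTEA7 and p = 0.114 for GTEA1. Without DMSO replicate 2 the difference from DMSO was 0.0395 percentage points for GTEA7, against 0.596 with it, and -1.90 for GTEA1, against -1.34 with it. All GTEA1 libraries then lay below both remaining DMSO libraries (exact permutation, adjusted p = 0.171). With so few libraries that test cannot pass even at full separation, so its p-value does not decide whether they differ. GTEA7 was 1.94 percentage points above GTEA1, with no overlap (exact permutation p = 0.0286, adjusted 0.0857). The 13 mRNAs alone took 11.8% ± 0.158 of all counts in GTEA7, 9.44% ± 0.351 in GTEA1 and 11.7% ± 0.803 in DMSO (SD, n = 4, 4 and 3). The 9.44% of GTEA1 was 2.25 percentage points below DMSO with no overlap (exact permutation p = 0.0571, adjusted 0.0857).

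Such exact permutation tests cannot go below p = 0.0571 with 4 libraries against 3, or below 0.0286 with 4 against 4. Over the 27 tests of this kind, 9 values in 3 comparisons, none passed after Benjamini-Hochberg adjustment, and the lowest adjusted value was 0.0857. The smallest possible p was reached by 4 of 9 values for GTEA7 against DMSO, 6 of 9 for GTEA1 against DMSO and 7 of 9 for GTEA7 against GTEA1.

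Counts of the rRNAs per 1000 counts of the heavy-strand mRNAs were 273 ± 4.33 in GTEA7, 392 ± 7.12 in GTEA1 and 239 ± 2.51 in DMSO (SD, n = 4, 4 and 3). The 3 groups did not overlap on this measure, which needs no scaling between libraries. Most of these rRNA counts were from MT-RNR2, with 18.7% of mtDNA counts in GTEA7, 26.1% in GTEA1 and 16.3% in DMSO. MT-RNR1 had 2.48% in GTEA7, 1.84% in GTEA1 and 2.81% in DMSO, so the higher sum was not a rise of both rRNAs. Counts of tRNAs, nearly all from MT-TP, were 0.999 ± 0.0539 per 1000 in GTEA7, 1.58 ± 0.103 in GTEA1 and 1.02 ± 0.0687 in DMSO, and the GTEA1 libraries stood above the rest. Counts of the light-strand MT-ND6 per 1000 were 11.6 ± 1.14 in GTEA7, 11.9 ± 0.727 in GTEA1 and 11.6 ± 1.24 in DMSO, and all groups overlapped. For MT-ND6 the exact permutation p was 0.971 for GTEA7 and 0.629 for GTEA1 against DMSO.

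Within the counts of the 13 mRNAs, complex IV took 52.9% ± 0.581 in GTEA7, 55.8% ± 0.342 in GTEA1 and 51.3% ± 0.7 in DMSO (SD, n = 4, 4 and 3). Complex III took 4.84% ± 0.145 in GTEA7, 3.22% ± 0.312 in GTEA1 and 5.94% ± 0.144 in DMSO. Complex V took 6.9% ± 0.0319 in GTEA7, 4.56% ± 0.116 in GTEA1 and 7.11% ± 0.132 in DMSO. For these 3 complexes no group overlapped with another, and each difference from DMSO had the smallest p the test allows (exact permutation p = 0.0571). Complex I took 35.3% ± 0.466 in GTEA7, 36.4% ± 0.522 in GTEA1 and 35.6% ± 0.708 in DMSO, and the groups overlapped (exact permutation p = 0.629 for GTEA7 and 0.229 for GTEA1 against DMSO). Without DMSO replicate 2 the difference of the complex I share from DMSO was -0.699 percentage points for GTEA7, against -0.291 with it, and 0.379 for GTEA1, against 0.788 with it. The shares of complexes I and IV are sums over mRNAs that did not move alike with GTEA1. Of all mtDNA counts, MT-CO1 took 26.1% in GTEA1 and 21.75% in DMSO, MT-CO2 7.97% and 9.35%, and MT-CO3 6.07% and 10.4%. In complex I, MT-ND4 took 15.0% in GTEA1 and 13.2% in DMSO, while 4 of the 7 mRNAs fell in edgeR. As a further description chosen after the values were seen, MT-CO1 counts were 5.94 ± 0.263 times those of MT-CYB in GTEA7, 11.3 ± 0.942 times in GTEA1 and 4.53 ± 0.0779 times in DMSO (SD, n = 4, 4 and 3).

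**Figure D4:**
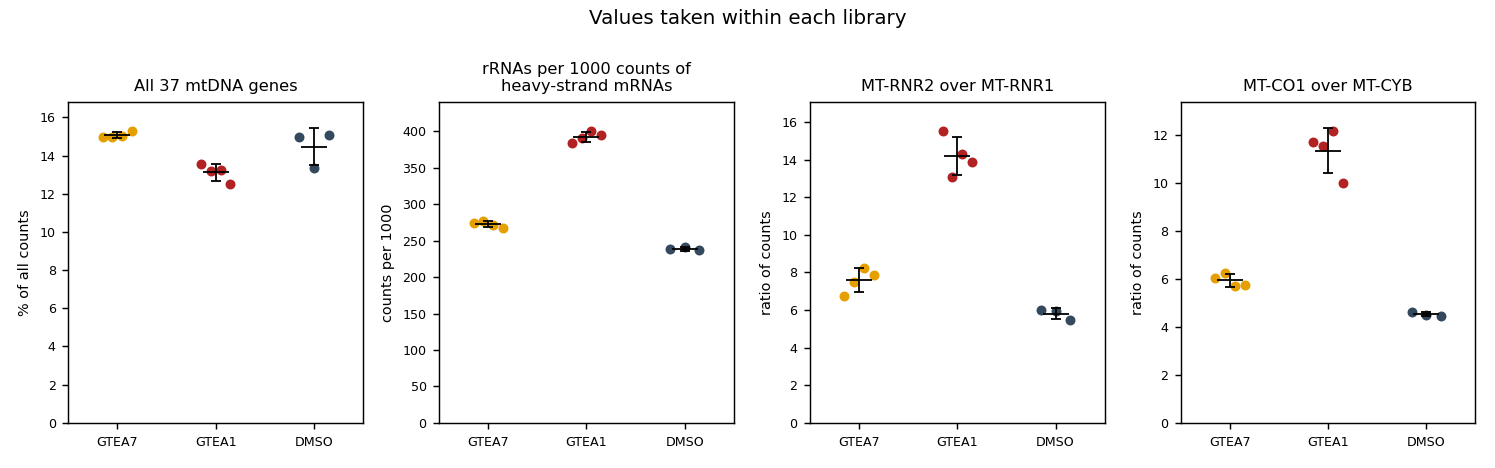
Values taken within each library, with mean ± SD over 4 GTEA7, 4 GTEA1 and 3 DMSO libraries: percent of all counts from the 37 mtDNA genes, rRNA counts per 1000 heavy-strand mRNA counts, the MT-RNR2 over MT-RNR1 count ratio and the MT-CO1 over MT-CYB count ratio. The DMSO library at 13.3% in the panel of all mtDNA genes is replicate 2, and in the other panels the 3 groups do not overlap.

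The mRNAs annotated without a full stop codon, shown above, did not all move alike. With GTEA1, 5 of these 6 fell and MT-ND4 rose, where 36.2% of all genes fell and 35.6% rose. Of the 7 mRNAs with a full stop codon in the annotated gene, 4 fell, MT-ATP6 among them, MT-CO1 rose and 2 did not pass. With GTEA7, 1 of the 6, MT-CYB, fell and the other 5 did not pass, where 12% of all genes rose and 10.4% fell. Of the 7 with a full annotated stop codon MT-CO1 and MT-CO2 rose with GTEA7 and 5 did not pass. In map order, some neighbours had like values with GTEA1 and others did not. MT-ATP8, MT-ATP6, MT-CO3 and MT-ND3, which follow each other, were at -0.92, -0.79, -0.76 and -0.81, whereas MT-CO1, which rose, lies between MT-ND2 and MT-CO2, which fell. These are counts over few genes, and no difference between the groups of genes was tested.

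Genes of the nucleus that express mtDNA were read from a list of 41, of which 40 had enough counts. With GTEA7, 13 of these 40 rose and 0 fell in edgeR (median log2 fold change 0.08), where 12% of all genes rose and 10.4% fell. At an unadjusted p under 0.05 there were 2 falls, and limma-voom and DESeq2 called 0. Without DMSO replicate 2, 8 rose. With GTEA1, 7 rose and 21 fell, where 35.6% of all genes rose and 36.2% fell. The list's median was then -0.18, beside -0.01 over all genes. With library totals alone as the scale, 7 rose and 2 fell with GTEA7, and 5 rose and 27 fell with GTEA1. On that scale 6.99% of all genes rose and 16.4% fell with GTEA7, and 26.9% rose and 45.5% fell with GTEA1. Members of the list do not all act in 1 direction on mtDNA transcripts, since some transcribe, some process and some degrade them.

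Among the core factors, TFAM, which packages mtDNA and starts its transcription, had 87.2 CPM in GTEA7, 46.3 CPM in GTEA1 and 80.9 CPM in DMSO. It fell by 0.81 ± 0.05 on the log2 scale with GTEA1 (SE, edgeR adjusted p = 7.78e-21), and with GTEA7 its value was 0.11 ± 0.04 (SE, edgeR adjusted p = 0.062). For GTEA7 TFAM passed with DESeq2 size factors (adjusted p = 0.0422), with no low-count filter (0.0488), with only the compared groups (0.0249) and without GTEA7 replicate 4 (0.0291). POLRMT, the mitochondrial RNA polymerase, rose by 0.60 ± 0.05 with GTEA1 (SE, edgeR adjusted p = 1.12e-16) and was at -0.02 with GTEA7 (edgeR adjusted p = 0.842). TFB2M, which opens the promoter with POLRMT, rose by 0.32 ± 0.06 with GTEA7 (SE, edgeR adjusted p = 3.93e-05) and was at -0.06 with GTEA1 (edgeR adjusted p = 0.401), or at -0.22 on the scale of library totals (adjusted p = 0.00219). TEFM, the elongation factor, fell by 0.56 ± 0.12 with GTEA1 (SE, edgeR adjusted p = 4.67e-05) and was at 0.02 with GTEA7 (edgeR adjusted p = 0.941). LRPPRC, which with SLIRP binds and stabilises the mRNAs, rose by 0.18 ± 0.03 with GTEA7 (SE, edgeR adjusted p = 6.05e-05) and fell by 0.33 ± 0.03 with GTEA1 (SE, edgeR adjusted p = 9.41e-13). SLIRP itself was at 0.08 with GTEA7 (edgeR adjusted p = 0.4) and rose by 0.16 ± 0.06 with GTEA1 (SE, edgeR adjusted p = 0.0235), but was at -0.00 on the scale of library totals and did not pass without DMSO replicate 3 or GTEA1 replicate 1.

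Of the factors that process or modify the transcripts, FASTKD5, needed for cuts at junctions that have no tRNA, had 28.3 CPM in GTEA7, 9.16 CPM in GTEA1 and 28.0 CPM in DMSO. It fell by 1.62 ± 0.08 with GTEA1 (SE, edgeR adjusted p = 9.01e-25). TRMT10C, a subunit of the RNase P that cuts at the 5′ ends of tRNAs, rose by 0.28 ± 0.05 with GTEA7 (SE, edgeR adjusted p = 7.72e-05) and fell by 0.93 ± 0.06 with GTEA1 (SE, edgeR adjusted p = 2.51e-18). MTO1, which modifies mitochondrial tRNAs, rose by 0.94 ± 0.06 with GTEA1 (SE, edgeR adjusted p = 5.71e-21), and SUPV3L1, the helicase of the mitochondrial RNA degradosome, by 0.61 ± 0.05 (SE, edgeR adjusted p = 3.65e-15). Their part in the levels of the mtDNA transcripts was not tested.

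Genes that copy and maintain mtDNA were read from a list of 23, all tested. With GTEA7, 3 rose, TOP1MT fell and 19 did not pass (median 0.06), where 12% of all genes rose and 10.4% fell. On the scale of library totals 2 rose and 4 fell, beside 6.99% and 16.4% of all genes. The rises were SSBP1, the single-strand binding protein, at 0.26 ± 0.05, RNASEH1 at 0.22 ± 0.04 and the helicase TWNK at 0.13 ± 0.04. TWNK did not pass without DMSO replicate 1 or GTEA7 replicate 1, nor did TOP1MT without DMSO replicate 1 or 3 or GTEA7 replicate 1, 2 or 3. With GTEA1, 8 rose and 8 fell, close to the 35.6% and 36.2% of all genes, with a median of -0.05. On the scale of library totals 7 rose and 12 fell with GTEA1, beside 26.9% and 45.5% of all genes. LIG3, the mitochondrial DNA ligase, rose by 1.05 ± 0.05, LONP1, the matrix protease, by 0.96 ± 0.04, and POLG2, the accessory subunit of the mtDNA polymerase, by 0.72 ± 0.04. The exonuclease MGME1 fell by 1.11 ± 0.06, the nuclease DNA2 by 0.75 ± 0.06 and the topoisomerase TOP3A by 0.60 ± 0.07. These values are log2 fold changes ± SE from edgeR. No measure of mtDNA copy number was analysed here.

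Regulators of mitochondrial biogenesis were read from a list of 12, of which 10 were tested; PPARGC1A and ESRRG, with 8 and 1 counts in all, were not. With GTEA7, MYC rose by 0.36 ± 0.03 (SE, edgeR adjusted p = 1.05e-11) and YY1 by 0.09 ± 0.03 (SE, edgeR adjusted p = 0.0484). CREB1 fell by 0.17 ± 0.05, HCFC1 fell by 0.13 ± 0.04 and 6 did not pass, where 12% of all genes rose and 10.4% fell. On the scale of library totals 1 rose and 2 fell with GTEA7, beside 6.99% and 16.4% of all genes. YY1 did not pass without any 1 of the DMSO libraries or GTEA7 replicate 1, 2 or 3, nor did HCFC1 without DMSO replicate 2 or 3 or GTEA7 replicate 2 or 3. With GTEA1, 4 rose and 3 fell, close to the 35.6% and 36.2% of all genes. On the scale of library totals 2 rose and 5 fell with GTEA1, beside 26.9% and 45.5% of all genes. The coactivator PPRC1 rose by 0.33 ± 0.04 and the nuclear receptor ESRRA by 0.42 ± 0.07 with GTEA1, and YY1 fell by 0.26 ± 0.04 and the coactivator PPARGC1B by 0.27 ± 0.06.

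Some nuclear-encoded subunits of the same complexes rose and others fell with GTEA1, where 35.6% of all genes rose and 36.2% fell. For complex I, 12 of 37 nuclear genes rose and 12 fell (median -0.06), not above those shares, beside 1 that rose and 4 that fell of its 7 mtDNA mRNAs. NDUFS4 rose by 0.82 ± 0.05, and NDUFC2 fell by 1.99 ± 0.16, the lowest point among the nuclear subunits plotted, at 6.53 CPM in GTEA7, 1.74 CPM in GTEA1 and 6.90 CPM in DMSO. For complex III, 2 of 9 nuclear genes rose and 3 fell (median 0.02), beside the fall of MT-CYB by 1.04. For these 9 genes limma-voom called 3 rises and 2 falls, and the DESeq2 Wald test 2 and 2. The fall of UQCR10, at -0.31 (edgeR adjusted p = 0.0315), did not pass in either of these or with no low-count filter. Nor did UQCR10 pass without DMSO replicate 2 or GTEA1 replicate 2, 3 or 4. For complex IV, 4 of 12 rose and COX6C fell, with a median of 0.12, and for complex V, 3 of 18 rose and 9 fell, with a median of -0.08. COX7A2L, a factor that joins complexes III and IV, rose by 0.70 ± 0.04. ATP5MC3 fell by 0.98 ± 0.04 while ATP5MC2, a paralog that encodes the same c subunit of complex V, rose by 0.78 ± 0.04. On the scale of library totals the rises and falls with GTEA1 were 7 and 19 for complex I, 0 and 6 for complex III, 2 and 5 for complex IV and 1 and 13 for complex V. On that scale 26.9% of all genes rose and 45.5% fell with GTEA1.

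With GTEA7, more nuclear subunits rose than fell, where 12% of all genes rose and 10.4% fell. For complex I, 6 of 37 rose and NDUFA13 fell, for complex III, 1 of 9 rose, for complex IV, 4 of 12 rose, and for complex V, 7 of 18 rose, with medians of 0.06, 0.08, 0.07 and 0.13. In complex I, NDUFA1 did not pass without DMSO replicate 1 or GTEA7 replicate 2, nor did NDUFAB1 without DMSO replicate 1. The rise in complex III, CYC1, did not pass in limma-voom, in the DESeq2 Wald test, or without DMSO replicate 1 or GTEA7 replicate 1, 2 or 3. In complex IV, COX6B1 did not pass in limma-voom or without DMSO replicate 1 or 3 or GTEA7 replicate 2 or 3. On the scale of library totals the rises with GTEA7 were 2 for complex I, 0 for complex III, 2 for complex IV and 5 for complex V, with 1 fall in complex I. On that scale 6.99% of all genes rose and 16.4% fell with GTEA7. The largest of the named rises were ATP5MC1 at 0.31 ± 0.05, NDUFB5 at 0.28 ± 0.05 and COX5A at 0.23 ± 0.04. Of the 4 genes of complex II, which has no mtDNA subunit, 2 rose with GTEA7, while with GTEA1 2 rose and SDHC fell. The rise of SDHB with GTEA7 did not pass without DMSO replicate 3 or GTEA7 replicate 2. On the scale of library totals 1 gene of complex II rose with each extract, and 1 fell with GTEA1. Between the extracts, 11 of 18 nuclear genes of complex V were higher in GTEA7 than in GTEA1 and 1 lower, with a median of 0.24, beside 0.80 for MT-ATP6 and 1.37 for MT-ATP8. Of all genes, 36.2% were higher in GTEA7 than in GTEA1 and 36.4% lower.

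**Figure D5:**
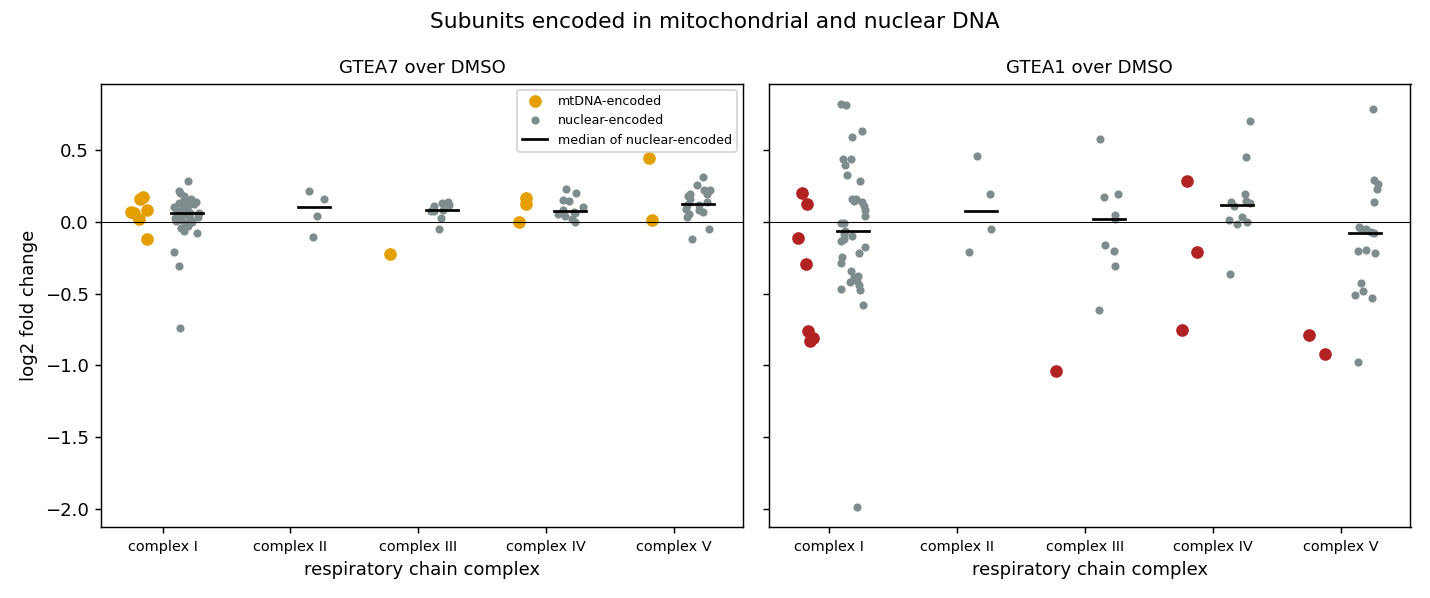
Log2 fold changes over DMSO of the mtDNA-encoded (large points) and nuclear-encoded (small grey points, bar at the median) subunits of each respiratory chain complex, for GTEA7 and GTEA1. With GTEA1 the mtDNA subunit of complex III lies at -1.04 and those of complex V at -0.79 and -0.92, below the nuclear medians of 0.02 and -0.08, while with GTEA7 the medians lie between 0.06 and 0.13.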

How the data were processed

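The authors deposited raw read counts per gene, 1 column for each of 11 libraries, and all columns were matched to samples (0 left over). The submitters' processing notes list, with no role, the aligner STAR, the counter HTSeq 0.5.4, DESeq 1.10.1, SAMtools 0.1.18, GATK and Picard. The build, the annotation and the strand setting are not stated in what was used here, and coordinates are therefore left out. A gene name table gave symbols for 60370 IDs; GENCODE v29 gave lengths and sequences.

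From the counts, filterByExpr and TMM were applied and 1 quasi-likelihood model with group means was fitted (edgeR 4.0.16, R 4.3.3; adjusted p under 0.05 over all genes). CPM are TMM-scaled; fold changes do not depend on gene length. Shares and ratios were compared by exact permutation over libraries. The fit was tested on simulated data. Replicates of a group differed by more than counting noise. Alternatives were DESeq2 size factors, library totals alone, TMM from nuclear genes, 2 other filters, a replicate block, only the compared groups, limma-voom (limma 3.58.1), the Wald test of DESeq2 1.42.0 and leaving out each library.

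The members and the gene lists were chosen with earlier results of these data known. All members are accounted for. From the nuclear lists the text names 6 core genes and, per comparison, up to 3 higher and 3 lower genes with the smallest adjusted p, and of the copies the 3 with the most counts; not every eligible gene is named, and the choice among them followed their values.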

Additional observations from a re-analysis of the deposited data

Results flagged for a closer look

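Of 50 groups of 4 libraries checked, each for 1 tested gene or share, 3 held a library far from the others by Dixon's test. Chance alone flags about 1 in 20 groups. All 3 were GTEA7 groups, and each involved a different library. For MT-CO1, which encodes the catalytic subunit of complex IV, GTEA7 replicate 2 had 33888 CPM where the other GTEA7 libraries had 33317 to 33384 CPM, all above every DMSO library. For MT-ND3, a small subunit of complex I, GTEA7 replicate 1 had 1333 CPM where the others had 1472 to 1498 CPM. The share of all counts from the 37 mtDNA genes was 15.3% in GTEA7 replicate 4, and between 14.96% and 14.998% in the others. In the first and last case the other 3 libraries lay very close together.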

How the results depend on the processing

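The changes with GTEA1 held best. With library size only, MT-ND4L was at -0.038 and SLIRP at -0.00051. Leaving out each library gave 10 to 11 lower and 4 to 5 higher mtDNA genes against DMSO, and MT-ND4L passed at 0.18 without GTEA1 replicate 4. The cause of these shifts was not tested. The 3 rises with GTEA7 became 5 with no low-count filter, 6 with limma-voom and 1 without DMSO replicate 2 (range 1 to 4 leaving out each library), and the 1 fall became 2 (range 1 to 2). MT-CO2 did not pass with at least 1 CPM in 3 libraries, and MT-ND1 passed at 0.22 without DMSO replicate 3. The 4 genes lower in GTEA7 than in GTEA1 became 2 with library size only, where MT-ND4L was at 0.0089.

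Signs turned for GTEA7 against DMSO at values near 0. MT-CO3 was at 0.0079 with DESeq2 size factors and with the DESeq2 Wald test, 0.00087 with TMM from nuclear genes, 0.014 with no filter, 0.00026 with only the compared groups and 0.00085 with limma-voom. With library size only, MT-ATP6 was at -0.039, MT-ND4L at -0.029, MT-TP at -0.0082 and TEFM at -0.036. Leaving out each library gave ranges of -0.039 to 0.028 for MT-CO3, -0.065 to 0.051 for MT-ATP6, -0.042 to 0.12 for MT-ND3, -0.018 to 0.060 for MT-ND4L and -0.066 to 0.17 for MT-ND6, each lowest without DMSO replicate 2, and of -0.014 to 0.049 for TEFM and -0.062 to 0.022 for POLRMT. The share of the 13 mRNAs (GTEA7 minus DMSO) then ranged from -0.303 to 0.410 percentage points, tRNA counts per 1000 from -0.0443 to 0.0177 and MT-ND6 counts per 1000 from -0.616 to 0.622, and the last, as GTEA1 minus DMSO, from -0.268 to 0.970.

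No label pairs libraries by number, and deviations of same-numbered libraries correlated between -0.055 and 0.026. With the number as a replicate block, MT-ND2 passed for GTEA7 against DMSO (0.20, adjusted p = 0.0129), MT-ND5 did not for GTEA7 against GTEA1 (0.17, adjusted p = 0.11), MT-CO3 was at 0.013, TEFM at -0.0076, POLRMT at 0.0075 and MT-ND6 counts per 1000 at -0.545. Too few counts were found to test 21 of the 22 tRNAs, and whether depth or capture limits them was not tested.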

Other observations

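MT-ND4 and MT-ND5 passed narrowly between the extracts. In GTEA7 over GTEA1, MT-ND4 was at -0.12 ± 0.05 (SE, edgeR adjusted p = 0.034) and MT-ND5 at 0.17 ± 0.06 (SE, edgeR adjusted p = 0.0225), and for both the libraries of the groups overlapped. MT-ND4 did not pass without GTEA1 replicate 1 or 3 or GTEA7 replicate 1, 2 or 3, nor did MT-ND5 without GTEA1 replicate 1 or 4 or GTEA7 replicate 1. The other mRNAs that differed between the extracts were separate in every library, with MT-ATP8 at 1.37 ± 0.23 (SE, edgeR adjusted p = 0.000561), MT-ND3 at 0.87 ± 0.09 (SE, edgeR adjusted p = 2.2e-05), MT-CO3 at 0.75 ± 0.04 (SE, edgeR adjusted p = 8.27e-24) and MT-CO2 at 0.33 ± 0.04 (SE, edgeR adjusted p = 2.05e-09).

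Among nuclear genes that express mtDNA, 25 of 40 were higher in GTEA7 than in GTEA1 and 6 were lower, with a median log2 fold change of 0.21. Of all genes, 36.2% were higher and 36.4% lower. With library totals as the scale, 31 were higher and 6 lower, beside 42.6% and 30.4% of all genes. FASTKD5 was at 1.63 ± 0.07, TRMT10C at 1.21 ± 0.06 and TFAM at 0.92 ± 0.04, while MTO1 was at -0.90 ± 0.05, POLRMT at -0.62 ± 0.04 and SUPV3L1 at -0.39 ± 0.05 (edgeR, SE). MT-ATP6 counts were 27.6 ± 9.23 times those of MT-ATP8 in GTEA7, 39.0 ± 5.88 times in GTEA1 and 35.1 ± 4.70 times in DMSO (SD, n = 4, 4 and 3), with GTEA7 replicate 1 at 41.2 and the other GTEA7 libraries between 21.0 and 24.1.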
